A study of Mus musculus with 4 samples.

Results

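The genes described are C1qa, C1qb, C1qc, C3 and C4b, 5 of the 22376 genes listed in the Visium files of this series. They were chosen by name as the early components of the complement cascade, with their levels in the SN and VTA of the GqCNO mice already known. All 3 groups were homozygous for Cre at the dopamine transporter gene (DAT (iCre/iCre) in the labels, DAT IREScre in the study's methods), so that Cre is made by cells that use the dopamine transporter promoter. The labels give the injected mice as males of 3 to 4 months. The 3 GqCNO mice had a bilateral midbrain injection of a Cre-dependent AAV carrying hM3Dq fused to mCherry, an excitatory designer receptor, and drank its ligand clozapine-N-oxide (CNO, 300 mg/L) with 2% sucrose for 1 week. The 3 GqVeh mice had the same virus and drank sucrose water without CNO. The 2 CNO alone mice had no injection and drank the CNO water. All mice were housed singly with a running wheel. GqVeh and CNO alone together are called the 5 controls.

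Visium captures RNA on small discs under a 10 µm tissue section, and each captured transcript carries a unique molecular identifier (UMI). The authors deposited 1 averaged value per gene, region and mouse for the substantia nigra (SN), ventral tegmental area (VTA) and thalamus on midbrain arrays, and for the caudate putamen (CP), lateral septal complex (LSX) and white matter on striatal arrays. Levels below are UMIs per 10000 UMIs of a region in a mouse. A disc holds several cells, so more cells of a type and more RNA per cell cannot be told apart.

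C1q is the recognition protein that opens the classical complement pathway, and it is built from chains encoded by C1qa, C1qb and C1qc. Activated C1 cuts C4 and, through the resulting convertase, C3, whose fragments coat targets and are read by receptors on phagocytes. In the brain, C1q is made mainly by microglia, C4 largely by astrocytes, oligodendrocytes and neurons, and C3 is low in the healthy tissue and is known as a marker of some reactive astrocytes.

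The C1q genes lie side by side on chromosome 4 of GRCm38.p6, the assembly that corresponds to the mm10 build of the files. C1qb spans 136880126 to 136886200, C1qc 136889801 to 136892936 and C1qa 136895916 to 136898844, so that the cluster covers 18.7 kb. C4b (34728139 to 34743902) and C3 (57203967 to 57228136) are both on chromosome 17. C4b has a near-identical copy, C4a, 65.2 kb away, and reads that fit both copies cannot be told apart. In the CP, where both were counted, C4a held 51 UMIs and C4b 607. C4a was not among the genes listed for the midbrain arrays.

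The 250 bases before the RefSeq start are shown for C1qb and C1qc, neighbours in the cluster with similar levels across mice, and for C3, whose pattern was different. C1qa and C4b have no entry in the promoter table used. All are read 5′ to 3′ on the minus strand, the strand of the gene, from RefSeq sequence of GRCm38.p6. Capitals mark matches, on either strand, to GAGGAA (the core of PU.1 sites), AGGAAGT (an ETS core) or TTGCNNAA (a C/EBP motif). The windows are chr4:136886201-136886450 for C1qb, chr4:136892915-136893164 for C1qc and chr17:57228137-57228386 for C3. The start used for C1qc lies inside the span given above, so its window overlaps the annotated gene.
C1qb: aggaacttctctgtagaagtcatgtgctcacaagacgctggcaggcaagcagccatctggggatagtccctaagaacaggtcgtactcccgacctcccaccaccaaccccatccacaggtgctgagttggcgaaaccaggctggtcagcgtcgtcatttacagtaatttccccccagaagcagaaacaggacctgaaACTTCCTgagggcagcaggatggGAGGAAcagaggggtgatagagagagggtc
C1qc: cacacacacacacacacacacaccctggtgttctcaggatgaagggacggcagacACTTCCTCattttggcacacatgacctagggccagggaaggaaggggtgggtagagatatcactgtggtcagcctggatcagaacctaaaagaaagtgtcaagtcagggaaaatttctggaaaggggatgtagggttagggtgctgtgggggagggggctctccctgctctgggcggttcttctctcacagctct
C3: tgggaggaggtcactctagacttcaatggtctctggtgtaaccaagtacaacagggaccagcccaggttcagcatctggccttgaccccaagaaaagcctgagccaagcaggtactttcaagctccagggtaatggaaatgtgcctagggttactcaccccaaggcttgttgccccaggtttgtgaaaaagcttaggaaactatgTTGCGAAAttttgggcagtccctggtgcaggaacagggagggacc

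C1qb held GAGGAA 30 bases before its start and AGGAAGT on the opposite strand 53 bases before it. In C1qc both motifs were found on the opposite strand, 193 and 195 bases before the start, and they overlap each other. The C3 window held neither, and a single TTGCNNAA match 45 bases before the start. Of 32851 promoter windows of the same length, 23.3% held GAGGAA, 7.7% held AGGAAGT and 9.6% held TTGCNNAA. These matches describe letters in the window.

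Depth differed widely among the regions. A mouse gave 1 to 7 discs in the SN with 7779 to 71906 UMIs. It gave 2 to 49 discs in the VTA with 25808 to 350222 UMIs, whereas the CP had 357 to 560 discs and at least 4300381 UMIs. VTA discs also differed by group, with 49 and 37 in the CNO alone mice, 2 to 20 in GqVeh and 4 to 17 in GqCNO. GqCNO mice 781 and 801 had 1 SN disc each. GqVeh mouse 785 had 2 VTA discs and stands apart from the other GqVeh mice in the VTA, so the VTA values that it moves most are also given without it. GqCNO mouse 801 has no thalamus value. By the study's account, a disc entered the SN or VTA set only if it held a TH-positive soma. It also had to pass a preset level for at least 2 of Th, Slc6a3 and Slc18a2. The summed level of Th, Slc6a3, Slc18a2 and Ddc was 7.71 to 61.0 in the SN and 11.2 to 58.5 in the VTA. In the thalamus it was 0.103 to 0.350. The sum shares genes with that selection, so its contrast with the thalamus is no independent check of the regions. The authors also left out discs high in Gfap, Aldh1l1, Aif1 or P2ry12, so the levels describe what remained after that choice.

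The C1q chains were highest in the GqCNO mice, intermediate in GqVeh and lowest in CNO alone in the dopamine neuron regions. In the VTA, C1qa was 19.3, 7.13 and 13.2 in GqCNO mice 781, 801 and 804. It was 4.37, 0 and 3.75 in GqVeh mice 784, 785 and 802, and 0.400 and 0.412 in CNO alone mice C1W7 and C2W2. All GqCNO mice lay above all controls, and the GqVeh mice other than 785 lay between the GqCNO and CNO alone mice. The 0 of 25808 UMIs in mouse 785 allows a level of up to 1.16, below both other GqVeh mice.

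VTA C1qb was 14.6, 4.92 and 9.45 in GqCNO, 3.83, 0.775 and 3.28 in GqVeh, and 0.685 and 0.583 in CNO alone, with mice in the same order. VTA C1qc was 13.5, 3.72 and 7.71 in GqCNO, 3.48, 0.387 and 3.40 in GqVeh, and 0.343 and 0.412 in CNO alone. Both genes repeated the order of C1qa, with mouse 781 the highest of all mice and no overlap between GqCNO and controls. For C1qc the gap was narrow, since GqCNO mouse 801 stood just above GqVeh mouse 784.

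In the SN, C1qa was 14.9, 7.71 and 15.4 in GqCNO mice 781, 801 and 804. It was 6.87, 2.28 and 3.23 in GqVeh mice 784, 785 and 802, and 0.417 and 0.529 in CNO alone mice C1W7 and C2W2. The 3 groups did not overlap in the SN, and here mouse 785 was among the other GqVeh mice. The value of mouse 801 rests on 6 UMIs and has an exact 95% Poisson interval of 2.83 to 16.8, which covers the highest GqVeh mouse. Intervals cover counting error only.

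SN C1qb was 13.6, 7.71 and 10.1 in GqCNO, 6.01, 3.51 and 2.82 in GqVeh, and 0.834 and 0.529 in CNO alone. SN C1qc was 6.79, 3.86 and 6.68 in GqCNO, 6.01, 2.11 and 2.22 in GqVeh, and 0.278 and 0.264 in CNO alone. C1qb kept the 3 groups apart, whereas for C1qc GqVeh mouse 784 stood above GqCNO mouse 801. For all 3 chains every GqVeh mouse was above both CNO alone mice. How many of all genes keep groups apart in this way was not counted, so such orders are descriptions here and below.

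**Figure D1:**
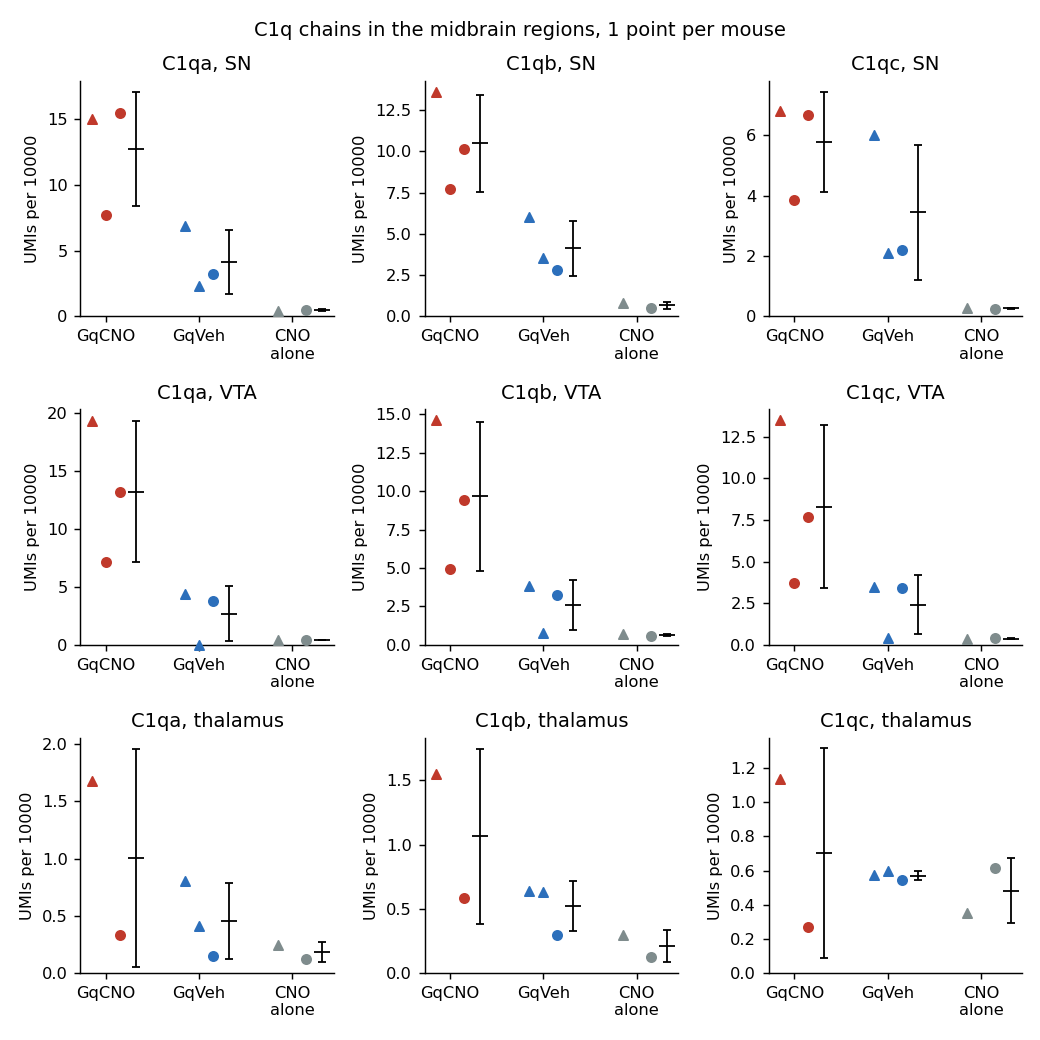
Levels of C1qa, C1qb and C1qc (UMIs per 10000, vertical axis from 0 and different in each panel) in the SN, VTA and thalamus, with 1 point per mouse, circles for array pair 1 and triangles for array pair 2, and the mean ± SD of each group in black. In the SN and VTA the GqCNO points sit highest and the CNO alone points near 0, while in the thalamus only GqCNO mouse 781 stands above the rest.

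C4b, the complement factor cut by C1, was also highest in the VTA of the GqCNO mice, at 3.37, 3.66 and 5.72 in mice 781, 801 and 804. It was 1.08, 0.387 and 1.29 in GqVeh mice 784, 785 and 802, and 0.20 and 0.206 in CNO alone mice C1W7 and C2W2. The 3 groups did not overlap, although the highest GqCNO mouse was 804 for C4b and 781 for the C1q chains. In the SN, C4b was 0, 1.29 and 3.77 in GqCNO, 0, 0.351 and 1.61 in GqVeh, and 0.139 and 0 in CNO alone, which overlap. The SN values rest on 0 to 22 UMIs per mouse.

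C3, the factor on which the complement pathways converge, had UMIs in all 3 GqCNO mice in the VTA and in no other region. It was 1.57, 0.420 and 0.995 in VTA of mice 781, 801 and 804, which is 14, 7 and 4 UMIs, and a single UMI was found in the 5 controls together. The ratio of the pooled levels was 80.8 with an exact 95% interval of 13.2 to 3317 for counting error alone. UMIs were pooled over mice, so the interval leaves out the spread between mice. It describes the contrast that chose the genes and is no test of it. In the SN, GqCNO mouse 804 had 8 UMIs, GqVeh mouse 802 had 1 and the other 6 mice had 0. In the thalamus, CP, LSX and white matter no mouse had more than 3 UMIs of C3.

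**Figure D2:**
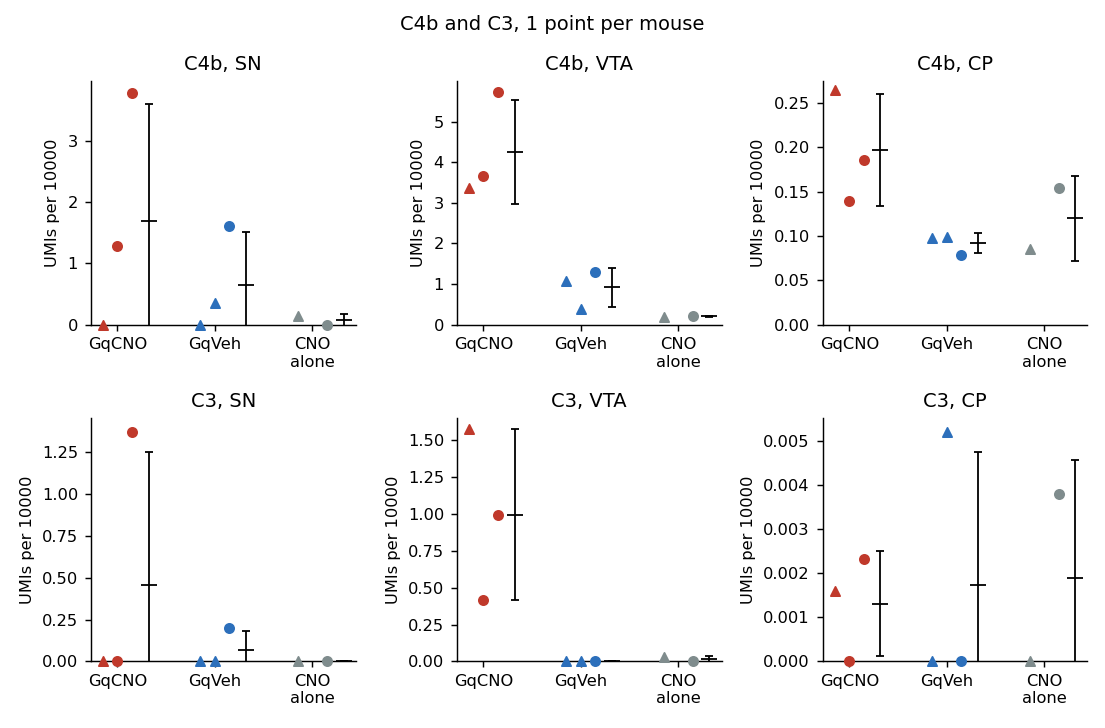
Levels of C4b (upper row) and C3 (lower row) in UMIs per 10000 in the SN, VTA and CP, with 1 point per mouse, circles for array pair 1, triangles for array pair 2 and the mean ± SD in black. C3 reaches 0.420 to 1.57 in the VTA of GqCNO mice and is at most 0.00521 in the CP of every mouse.

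Expressed as the log2 difference between GqCNO and the 5 controls, the VTA values were 3.06 ± 0.48 (SE, 3 against 5 mice) for C1qa, 2.27 ± 0.34 for C1qb and 2.29 ± 0.40 for C1qc. They were 2.15 ± 0.27 for C4b and 1.49 ± 0.27 for C3, where the constant of 0.5 added before log2 understates the change of so low a gene. In the limma fit over all genes of the VTA, all 5 passed an adjusted p of 0.05, where 1.52% of the 6312 tested genes did, and 3 passed without GqCNO mouse 781 (0.737% of genes). Without GqVeh mouse 785 the C1q differences were 2.65, 2.12 and 2.08, and all 5 passed (1.41% of genes). C3 reached the lowest mean tested (0.25) only through the GqCNO mice, so its passing is given no weight here or below. The genes were chosen through this contrast, so the count is a description. In the SN the log2 differences were 2.43 ± 0.42 for C1qa, 2.04 ± 0.42 for C1qb, 1.66 ± 0.46 for C1qc and 1.0 ± 0.57 for C4b, and C3 was under the lowest mean tested. The SE of group comparisons in the SN, here and below, rest on the spread of all genes at similar levels and not on each gene's own. C1qa and C1qb passed there, 2 of 4 tested, beside 0.648% of 6174 genes, and 1 passed without GqCNO mouse 804 (0.262% of genes), when the C4b difference was 0.28.

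Against GqVeh alone, where both groups carried the virus, the differences of the C1q chains and C4b were smaller. In the VTA they were 2.55 ± 0.54 for C1qa, 1.76 ± 0.38 for C1qb, 1.71 ± 0.45 for C1qc, 1.5 ± 0.31 for C3 and 1.77 ± 0.31 for C4b (3 against 3 mice). All but C1qc passed, 4 of 5, beside 0.475% of all genes, and edgeR called all 5, beside 0.650%. Without GqVeh mouse 785 the differences were 1.49 for C1qa, 1.21 for C1qb, 0.99 for C1qc and 1.47 for C4b, and none passed in limma (0.0160% of genes). None passed without GqCNO mouse 781 (0.0314%) or 804 (0.0160%) either. With the array pair as a block C3 and C4b passed, beside 0.333% of genes. In the SN the largest was C1qa at 1.57 ± 0.47, and none of the 4 tested genes passed in limma, beside 0.194% of genes (2 at an unadjusted p under 0.05, and none in edgeR).

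The difference between GqVeh and CNO alone, which asks whether injected mice on sucrose differ from uninjected mice on CNO, was not used to choose the genes, though it shares mice with the contrast that was. By the study's account, SN and VTA discs of injected mice also had to hold mCherry, so discs of the 2 groups were not chosen alike. In the SN the difference was 2.13 ± 0.53 for C1qa, 1.92 ± 0.53 for C1qb and 2.22 ± 0.58 for C1qc on the log2 scale (3 against 2 mice). In limma the adjusted p was 0.0664, 0.209 and 0.137, so none of the 4 tested genes passed, beside 0.0648% of all genes. The 3 chains had an unadjusted p under 0.05, and edgeR called none. GqCNO mouse 801, with 1 SN disc, enters only the shared spread. Without it the same 3 differences passed, with adjusted p of 0.00367 for C1qa, 0.0193 for C1qb and 0.00815 for C1qc in limma, beside 0.131% of genes. Without GqCNO mouse 804, which likewise enters only that spread, the adjusted p in limma were 0.578, 0.770 and 0.618. The calls therefore depend on which mouse is left out.

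In the VTA the GqVeh minus CNO alone difference was 1.27 ± 0.60 for C1qa, 1.28 ± 0.43 for C1qb, 1.45 ± 0.50 for C1qc, 0.95 ± 0.34 for C4b and -0.04 ± 0.34 for C3. None of the 5 passed in limma, beside 0.0792% of genes, and 4 had an unadjusted p under 0.05. These values rest on mouse 785. Without it the C1qa, C1qb and C1qc differences were 2.33, 1.84 and 2.17 and passed at adjusted p of 0.00365, 0.0328 and 0.0185 in limma, beside 0.272% of genes. In edgeR on the recovered UMIs all C1q chains and C4b passed with mouse 785 included, beside 0.713% of genes. C3 was at 0 UMIs in all 3 GqVeh mice and 1 UMI in the CNO alone mice.

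In the thalamus, on the same arrays, GqCNO mice 781 and 804 had C1qa at 1.68 and 0.337, against 0.808, 0.410 and 0.149 in GqVeh mice 784, 785 and 802 and 0.25 and 0.124 in CNO alone mice C1W7 and C2W2. C1qb was 1.55 and 0.585 in GqCNO, 0.640, 0.633 and 0.299 in GqVeh, and 0.300 and 0.124 in CNO alone. C1qc was 1.14 and 0.270 in GqCNO, 0.572, 0.596 and 0.547 in GqVeh, and 0.350 and 0.619 in CNO alone. Mouse 781 was the highest mouse for each chain and mouse 804 lay within the controls for C1qa and C1qb and below them for C1qc, so the groups overlapped. The log2 differences were 0.73 ± 0.30, 0.77 ± 0.24 and 0.12 ± 0.24 (2 against 5 mice), with an adjusted p of 0.998 for each in limma.

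None of the 3 tested genes passed in the thalamus in limma, beside 0% of 6399 genes, with 2 at an unadjusted p under 0.05 and none in edgeR. GqVeh minus CNO alone in the thalamus gave 0 of 3 passing in limma and in edgeR, beside 0% of genes, and none at an unadjusted p under 0.05. C4b was under the lowest mean tested in the thalamus, at 0.619 in mouse 781 (24 UMIs) and 0 to 0.261 in the other 6 mice.

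**Figure D3:**
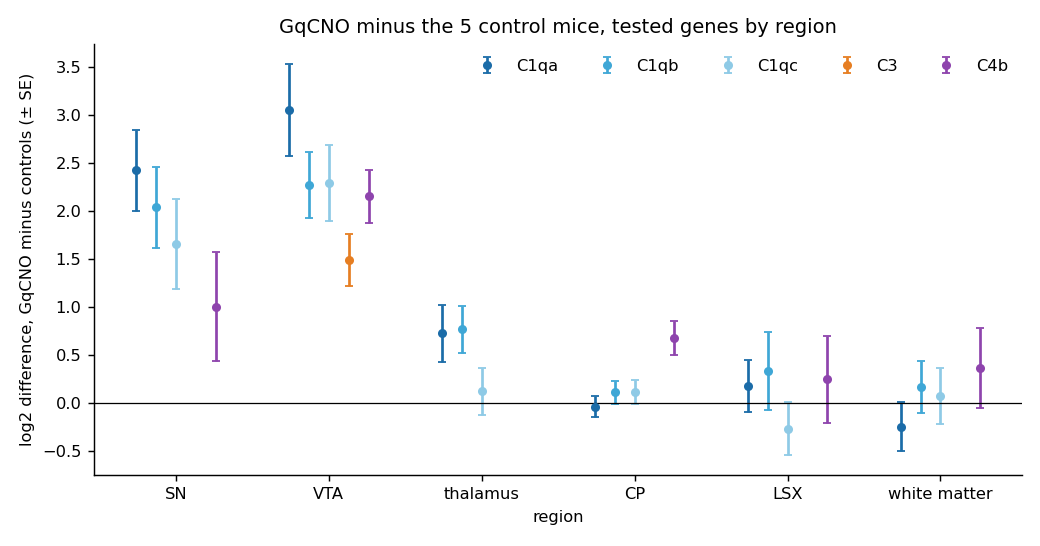
The log2 difference between GqCNO and the mean of the 5 controls with its standard error (vertical axis) for each tested gene in the 6 regions (horizontal axis). The values reach 3.06 (VTA) and 2.43 (SN) and lie between -0.27 and 0.77 in the other regions.

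Whether the GqCNO difference itself varied by region was asked with the difference per mouse between regions. For SN minus VTA it was -0.63 ± 0.55 for C1qa, -0.23 ± 0.53 for C1qb, -0.64 ± 0.55 for C1qc and -1.15 ± 0.69 for C4b. None of the 4 passed in limma, beside 0% of 5341 genes, and none had an unadjusted p under 0.05, so that unequal responses of the 2 regions were not detectable with these mice.

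The comparisons with the thalamus hold 2 GqCNO mice and 5 controls, since mouse 801 has no thalamus value. Mouse 801 was the lowest GqCNO mouse for each C1q chain in the VTA and SN. Without it the VTA difference of C1qa from controls was 3.42, against 3.06 with it. The VTA difference exceeded the thalamus difference by 2.70 ± 0.59 for C1qa, 1.90 ± 0.47 for C1qb and 2.62 ± 0.47 for C1qc. C1qa and C1qc passed, 2 of 3 tested, beside 0.205% of genes, and neither passed without GqCNO mouse 781 or 804 or either CNO alone mouse. The SN difference exceeded that of the thalamus by 2.01 ± 0.49, 1.47 ± 0.49 and 1.78 ± 0.49, and none of the 3 passed in limma, beside 0.0589% of genes, with 3 at an unadjusted p under 0.05. These values hold the SN or VTA levels through which the genes were chosen, and no support is drawn from them.

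In the CP, the main target of the SN neurons, the C1q chains overlapped between groups. C1qa was 0.867, 0.779 and 0.746 in GqCNO mice 781, 801 and 804, 0.919, 0.919 and 0.744 in GqVeh mice 784, 785 and 802, and 0.810 and 0.717 in CNO alone mice C1W7 and C2W2. The group means were 0.926 ± 0.079 (SD, n = 3) in GqCNO and 0.858 ± 0.116 (SD, n = 5) in controls for C1qb, and 0.766 ± 0.116 and 0.702 ± 0.090 for C1qc. The groups overlapped for all 3 chains, and their log2 differences lay between -0.04 and 0.12.

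C4b differed from the C1q chains in the CP. It was 0.265, 0.140 and 0.186 in GqCNO mice 781, 801 and 804 (165, 70 and 80 UMIs), 0.0978, 0.0990 and 0.0786 in GqVeh mice 784, 785 and 802, and 0.0858 and 0.154 in CNO alone mice C1W7 and C2W2. All GqCNO mice were above all GqVeh mice, and CNO alone mouse C2W2 overlapped them. The log2 difference from the controls was 0.68 ± 0.17, with an adjusted p of 0.999 in limma (unadjusted 0.0023), so that 0 of 4 genes passed in the CP, beside 0% of 10813 genes, and none in edgeR. With the array pair as a block it was 0.71 ± 0.15 and passed (adjusted p of 0.0303 in limma), beside 0.435% of genes. Within array pair 2 the difference was 1.13 (1 against 3 mice) and within array pair 1 it was 0.39 (2 against 2).

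In the LSX the C1q chains lay between 0.0931 and 0.690 over all mice and chains, and in white matter between 0.754 and 2.37. C4b ranged from 0.0869 to 0.373 in the LSX and from 0.127 to 0.492 in white matter. GqCNO and control mice overlapped for every gene in both regions, with log2 differences from -0.27 to 0.33 in the LSX and from -0.24 to 0.36 in white matter. None of the 4 tested genes passed in either in limma, beside 0% of genes in the LSX and 0.0367% in white matter, and none had an unadjusted p under 0.05 or passed in edgeR. GqVeh minus CNO alone likewise gave 0 of 4 in the CP, LSX and white matter in limma, beside 0% of genes in each, none at an unadjusted p under 0.05 and none in edgeR.

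The C1q levels of the 5 control mice differed by region, in a comparison within each mouse and array. The choice of genes did not use this comparison, though the SN and VTA levels of these mice enter the contrast that it used. SN exceeded thalamus by 1.53 ± 0.27 (log2, n = 5) for C1qa, 1.57 ± 0.26 for C1qb and 0.91 ± 0.29 for C1qc, with adjusted p of 3.66e-05, 9.62e-06 and 0.0309 in limma. All 3 tested genes passed, beside 9.90% of genes. VTA exceeded thalamus by 0.91 ± 0.33, 1.14 ± 0.25 and 0.64 ± 0.29, of which C1qb passed (adjusted p of 0.00276 in limma), 1 of 3 beside 22.1% of genes, and without GqVeh mouse 785 the differences were 1.35, 1.38 and 0.87 and all 3 passed, beside 29.5% of genes. For SN against VTA none of the 4 tested genes passed in limma, beside 0% of genes, with none at an unadjusted p under 0.05. The summed C1q level was 7.90 to 18.9 in the SN and 0.995 to 2.02 in the thalamus of the GqVeh mice, and in the CNO alone mice it was 1.32 and 1.53 (SN), 1.41 and 1.43 (VTA) and 0.866 and 0.900 (thalamus).

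In the striatal sections all 3 C1q chains were highest in white matter. CP was below white matter by -0.90 ± 0.16 for C1qa, -0.77 ± 0.17 for C1qb, -0.50 ± 0.16 for C1qc and -1.18 ± 0.28 for C4b (log2, n = 5), and all 4 passed in limma, beside 34.9% of genes. C1qc no longer passed when any 1 of the control mice was left out. CP exceeded LSX by 0.85 ± 0.17 for C1qa and 0.53 ± 0.13 for C1qc, which passed (adjusted p of 0.00865 and 0.0203 in limma), 2 of 4 beside 26.3% of genes, while C1qb at 1.06 ± 0.36 and C4b at -0.49 ± 0.22 did not pass. LSX was below white matter by -1.75 ± 0.21, -1.83 ± 0.36 and -1.02 ± 0.22 for the C1q chains, 3 of 4 beside 28.3% of genes, while C4b at -0.69 ± 0.42 did not pass. The GqCNO difference did not pass between any pair of striatal regions in limma, with 0 of 4 and 0% of genes in each and no gene at an unadjusted p under 0.05. Midbrain and striatal sections were on separate arrays, and their levels are not compared.

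**Figure D4:**
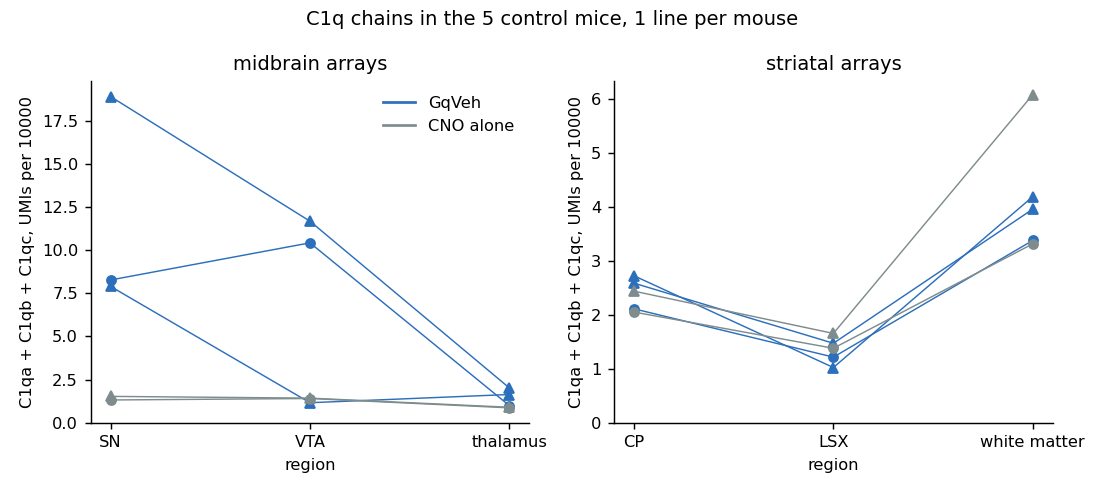
Summed level of C1qa, C1qb and C1qc (UMIs per 10000) in the regions of the midbrain arrays (left) and striatal arrays (right), with 1 line per control mouse, circles for array pair 1 and triangles for array pair 2. CNO alone mice stay between 0.866 and 1.53 across the midbrain regions, and all 5 mice peak in white matter on the striatal side.

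Microglia genes were measured in the same columns, and their part in the C1q levels was not tested. A list of 15 microglia genes, among them Cx3cr1, P2ry12, Tmem119, Csf1r, Tyrobp, Trem2 and Ctss, summed to 18 to 35.3 in the SN of GqCNO mice, 13.5 to 30.1 in GqVeh and 3.17 to 4.87 in CNO alone. In the VTA it was 22.4 to 50.8, 4.65 to 19.3 and 3.48 to 4.15. GqCNO and GqVeh overlapped in the SN and not in the VTA. No gene of the list was at 0 in all mice. Against the controls 5 of 12 tested passed in the VTA, among them Csf1r, Tyrobp, Ctss and Laptm5, and 0 of 12 for the SN in limma (4 at an unadjusted p under 0.05, and Tyrobp and Ctss in edgeR), beside 1.52% and 0.648% of all genes.

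The ratio of the C1q chains to this list differed among mice. Per 100 microglia-list UMIs the SN held 100, 107 and 120 C1q UMIs in GqCNO mice 781, 801 and 804, 62.9, 54.2 and 61.2 in GqVeh mice 784, 785 and 802, and 31.4 and 41.7 in CNO alone mice C1W7 and C2W2. In the VTA the values were 93.4, 70.3 and 114 in GqCNO, 65.9, 25.0 and 53.9 in GqVeh, and 41.0 and 33.9 in CNO alone. GqCNO mice lay above all controls in both regions. In the CP the same ratio was 41.0 ± 1.9 in GqCNO (SD, n = 3) and 41.7 ± 4.0 in controls (SD, n = 5), and across the LSX, white matter and thalamus it lay between 20.0 and 52.8 in every mouse. The SN and VTA ratios are made of the levels through which the genes were chosen and are given without a test.

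**Figure D5:**
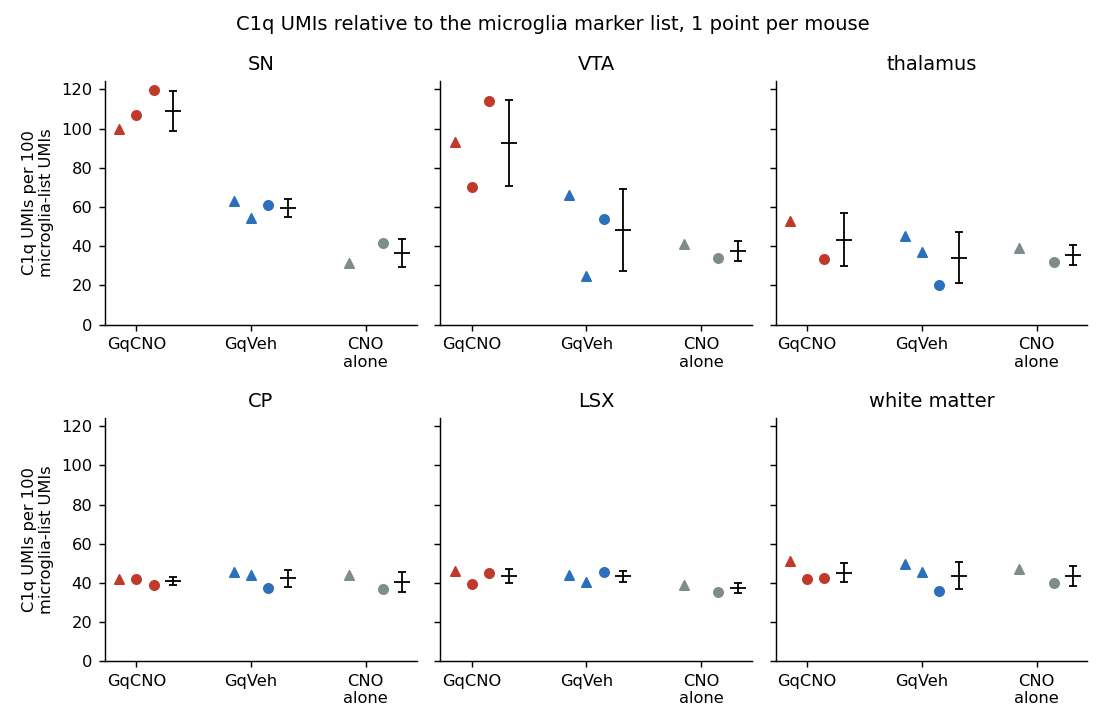
C1q UMIs (C1qa, C1qb and C1qc) per 100 UMIs of the 15-gene microglia list in 6 regions, with 1 point per mouse, circles for array pair 1, triangles for array pair 2 and the mean ± SD of each group in black. GqCNO points stand at 70.3 to 120 in the SN and VTA, and in the other regions every mouse lies between 20.0 and 52.8.

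Other cell type lists were measured in the same columns, and their part in the C1q, C3 and C4b levels was not tested. The astrocyte list summed to 27.9 to 47.1 in the SN of GqCNO mice against 17.2 to 28.2 in controls. In the VTA it was 29.8 to 39.7 against 13.9 to 23.8. Gfap passed in the SN (1 of 7), and Gfap and Aqp4 in the VTA (2 of 7). Beside every count in this paragraph, 0.648% of all genes passed in the SN and 1.52% in the VTA. These calls are of GqCNO against controls in the SN and VTA and are descriptions. The difference was above 0 for 4 of 7 astrocyte genes in the SN and 5 of 7 in the VTA, and it was -1.21 ± 0.46 for Slc1a2 in the SN, which did not pass. Dopamine neuron markers were lower in GqCNO, at 7.71 to 48.2 against 27.5 to 61.0 in the SN and 11.2 to 31.1 against 40.2 to 58.5 in the VTA. Th and Ddc passed in the SN, and Slc6a3, Slc18a2 and Ddc in the VTA. Hemoglobin genes of the blood list were 7.47 to 32.1 in the SN of GqCNO mice against 0.202 to 18.5 in controls, and 3 of 4 passed there, against 0 of 4 for the VTA (0 at an unadjusted p under 0.05 and 0 in edgeR).

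Genes of infiltrating cells were at low levels. Monocyte and neutrophil genes summed to 0.899 to 1.49 in the VTA of GqCNO mice against 0 to 0.0491 in controls, and S100a8 and S100a9 were at 0. Ly6c2 alone reached the lowest mean tested, through the GqCNO mice, so no call is read from it. T cell genes were 0.120 to 1.24 against 0 to 0.196 in the VTA, with none tested. Border macrophage genes were 0 to 0.225 against 0.0343 to 0.775, with Cd163 at 0 and none tested. In the SN the highest mouse reached 1.71, 1.88 and 2.04 for these 3 lists. Oligodendrocyte, endothelial, and mural and fibroblast genes gave no call in limma in the SN or VTA, beside 0.648% and 1.52% of all genes. At an unadjusted p under 0.05 in limma there were 2, 0 and 0 in the SN and 0 of each in the VTA. None passed in edgeR, and choroid plexus genes were not tested there.

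The ratio of one C1q chain to another is free of the column total. The log2 ratio of C1qc to C1qa averaged -1.06 in the SN of GqCNO mice and -0.41 in controls, and -0.74 and 0.18 in the VTA, while C1qb to C1qa averaged -0.25 and 0.23 (SN) and -0.47 and 0.64 (VTA). GqVeh mouse 785, with 0 UMIs of C1qa in the VTA, raises the control averages there, which were -0.17 for C1qc to C1qa and 0.22 for C1qb to C1qa without it. These ratios are descriptions, since they come from the contrast that chose the genes. In the thalamus and striatal regions the C1qb, C1qc and C4b ratios gave an adjusted p of at least 0.214 (exact permutation test over mice, two-sided, 18 ratios in 6 regions). The lowest unadjusted p there was 0.0357 in the same test, for C1qb to C1qa in the CP. The smallest unadjusted p that the design allows is 0.0179 with 8 mice and 0.0476 with the 7 mice of the thalamus. A ratio that reached it alone could not pass after adjustment over 18 ratios, so no conclusion is drawn from the lack of a call.

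A list of 72 other genes held initiators and proteases, later components, regulators and receptors of complement. It also held C1q-domain relatives, which are not components of the cascade. Of the 72 genes, 18 could be tested in SN columns and 19 in VTA columns. None of them passed in GqCNO against controls in limma, beside 0.648% and 1.52% of all genes (3 and 5 at an unadjusted p under 0.05). Their median log2 difference was 0.07 (SN) and -0.07 (VTA), beside -0.08 and -0.06 over all genes. In edgeR none passed in the SN and 2 passed in the VTA, the regulators Clu and Serping1, of which Serping1 was singled out after its value was seen.

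Among the initiators and proteases, no gene reached the lowest mean tested in the SN or VTA. The proteases cut the next component once C1q or a lectin has bound. In the VTA, C1ra and Masp1 stood at 0.158 and 0.198 in GqCNO mice and at 0 and 0.0614 in controls. Later components were equally low, with Cfb, the protease of the alternative pathway, at 0.596 ± 0.443 in the VTA of GqCNO mice (SD, n = 3) and 0.00981 ± 0.0219 in controls (SD, n = 5), under the lowest mean tested. C2, the partner of C4 in the classical convertase, was at 0.215 ± 0.142 and 0.0291 ± 0.0507.

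The regulators held the best measured genes. Clu, a secreted chaperone that restrains the terminal complex, was at 19.8 ± 8.15 in GqCNO and 10.3 ± 2.42 in controls in the VTA, a log2 difference of 0.84 ± 0.25 (adjusted p of 0.122 in limma). Vtn was 0.89 ± 0.32 and Sez6l2 -0.20 ± 0.26 on the same scale, and Serping1, the inhibitor of C1, was 0.66 ± 0.29 (adjusted p of 0.408 in limma). Of the receptors, Calr differed by 0.26 ± 0.23, Lrp1 by -0.30 ± 0.25 and C1qbp by 0.13 ± 0.29. The C1q-domain relatives C1qtnf4 and C1ql1 differed by -0.18 ± 0.26 and -0.44 ± 0.28, and none of these genes passed.

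In the other comparisons no gene of the list passed in limma. In GqCNO against controls 15 were tested in the thalamus, 23 in the CP, 25 in the LSX and 29 in white matter, with 1, 1, 0 and 2 at an unadjusted p under 0.05 and none in edgeR. In GqVeh against CNO alone the same numbers, with 18 for SN and 19 for VTA, gave 0 in the SN, 2 in the VTA, 4 in the thalamus and 0 in each striatal region at an unadjusted p under 0.05, and none in edgeR.

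The genes whose log2 level was most like the mean of the 3 C1q chains over the 23 midbrain columns were Ctss (Pearson r of 0.97), B2m (0.97), H2-D1 (0.96), H2-K1 (0.96) and Ctsd (0.94), among 4799 genes with a median r of -0.10. Ctss and Ctsd encode lysosomal proteases, and B2m, H2-D1 and H2-K1 encode MHC class I chains. Over the 24 striatal columns they included Ftl1 (0.95), Ctss (0.95), Prdx6 (0.94) and Cystm1 (0.94). Ctss was on both lists. The columns of a mouse share animal and array, and depth varies among them, so these values describe the columns.

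C4b was most like Ifitm3 (0.83), Ly6e (0.80), Cstb (0.79), Lgals3bp (0.78) and Laptm5 (0.78) in the midbrain, and C3 was most like Tmbim6 (0.77), Cd63 (0.76), Ifitm3 (0.75), Mt2 (0.75) and Ly6e (0.73), so that Ifitm3 and Ly6e stood on both lists. In the striatum C4b was most like Dcxr (0.83), Il1rap (0.79), Slc2a1 (0.78), Tulp4 (0.78) and Txnip (0.78). C3 gave Abhd14b (0.73), Rilpl1 (0.69), Eif3j1 (0.69), Cbfa2t3 (0.64) and Lifr (0.64) there, from columns with 0 to 3 UMIs of C3. Between the 5 genes themselves the midbrain r was 0.96 to 0.98 among C1q chains, 0.66 to 0.69 between C4b and a C1q chain, 0.61 to 0.65 between C3 and a C1q chain and 0.82 between C3 and C4b. In the striatum r was 0.76 to 0.90 among the C1q chains and 0.26 to 0.40 between C4b and a C1q chain.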

How the data were processed

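Gene expression was measured with Visium in a midbrain and a striatal section of each of 8 mice on 4 arrays; the mouse was the replicate. Per the labels and the methods, reads were aligned to mm10 with Space Ranger (version and annotation not given in the sources used here), and discs were chosen in Loupe Browser. The authors deposited, per gene, region and mouse, a signal that is a median-normalized average; it held whole multiples of 1 step in 100% of low values (under 200 steps, within 0.05 steps), from which UMIs were recovered. A region label per disc (another kind of column, deposited by the authors) served to count discs. The label that names a column's mouse is the sample description. Image files were not used.

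Each column was rescaled to 10000, and log2 was taken after adding 0.5 (midbrain) or 0.05 (striatum). Genes with a mean of at least 0.25 or 0.05 were tested with limma 3.58.1 (R 4.3.3): 3 group means per region with a variance trend, or the difference per mouse between 2 regions, with Benjamini-Hochberg adjustment over all genes tested and a threshold of 0.05. The 5 genes and all lists were chosen with earlier results of these data known. GqCNO contrasts in the SN and VTA are therefore described, not tested. The lists were 72 complement genes and C1q-domain relatives by role, and cell type markers. The markers were those of microglia, border macrophages, monocytes and neutrophils, T cells, astrocytes, oligodendrocytes, endothelial cells, mural cells and fibroblasts. Others were those of choroid plexus, blood and dopamine neurons. Named genes were the 5 genes, list genes that passed and otherwise up to 3 per role with the highest mean, and the 5 genes most alike by Pearson r, of which 1 gene is not reported here. Ratios had exact permutation tests. Alternatives were values as deposited, TMM, constants of 0.1 or 1 (0.01 or 0.2), no filter or 0.5 (0.2), the array pair as a block, edgeR 4.0.16 on recovered UMIs, the methods' t-test and each mouse left out. Tested on simulated VTA counts of 6312 genes, the GqCNO fit recovered 4.5%, 86.5% and 100.0% of 200 genes changed by 2, 4 and 8 times.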

Additional observations from a re-analysis of the deposited data

Results flagged for a closer look

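In each region the 5 control mice were examined for a value far from the rest with Dixon's criterion, which marked 9 of 30 sets of levels; chance marks about 1 in 20 sets of continuous values. That rate does not apply to 5 of the 9, where 1 mouse had a single UMI of C3 and the others had none, which meets the criterion by construction: GqVeh mouse 802 in the SN (0.202 per 10000), LSX (0.0290) and white matter (0.0284), and CNO alone mouse C1W7 in the VTA (0.0286) and thalamus (0.050). SN C4b was 1.61 in GqVeh mouse 802, from 8 UMIs, with the next control at 0.351. Thalamus C1qc was lowest in CNO alone mouse C1W7 at 0.350, from 7 UMIs. CP C4b was 0.154 in CNO alone mouse C2W2, from 81 UMIs, against 0.0990 in the next control, and without this mouse the GqCNO difference from controls was 0.79 with an adjusted p of 0.448 in limma. LSX C4b was 0.372 in GqVeh mouse 784, from 4 UMIs, against 0.158 in the next control.

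The GqCNO difference from controls was larger in the VTA than in the thalamus by 2.70 for C1qa (adjusted p of 0.0442) and 2.62 for C1qc (0.0112) in limma on the difference per mouse. GqCNO mouse 801, with no thalamus value, did not enter. Both differences contain the VTA levels through which the genes were chosen. Without GqCNO mouse 781 or 804, or without either CNO alone mouse, neither passed.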

How the results depend on the processing

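Counts below are of the 5 genes that passed. The direction of C1qa, C1qb, C1qc, C3 and C4b in GqCNO against controls held in the SN and VTA in every alternative in which they were tested. For GqCNO against controls, the SN count of 2 became 1 with TMM, 4 in edgeR and 0 with the methods' t-test, and 1 to 3 with a mouse left out (1 without GqCNO mouse 804); without the 3 mice under 15000 SN UMIs, chosen after seeing the data, it was 3. The VTA count of 5 became 3 with the smaller constant, 1 without a filter and 0 with the methods' t-test, and 3 to 5 with a mouse left out (3 without mouse 781). The CP count of 0 became 1 with the array pair as a block. Against GqVeh, the VTA count of 4 became 1 with TMM, 0 with the smaller constant, 0 without a filter, 1 with the stricter filter, 2 with the block, 5 in edgeR and 0 to 5 with a mouse left out (0 without 781, 804 or 785), and the SN count of 0 became 0 to 1 (1 without 801 or 784). For GqVeh against CNO alone, the SN count of 0 became 2 with the smaller constant and 0 to 3 with a mouse left out (3 without 801, 1 without 781 or 785), and the VTA count of 0 became 4 in edgeR and 0 to 3 (3 without 785).

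Between regions in controls, SN against thalamus went from 3 to 0 without a filter (2 to 3 with a mouse left out), VTA against thalamus from 1 to 2 with the larger constant, 0 without a filter and 1 to 3 with a mouse left out, CP against white matter from 4 to 3 with any mouse left out, and CP against LSX from 2 to 1 to 3 with a mouse left out (1 without 785, C1W7 or C2W2). The response in SN against thalamus went from 0 to 1 with values as deposited and 0 to 2 with a mouse left out (2 without 784, 1 without 781 or 785), and that in VTA against thalamus from 2 to 1 as deposited, 0 with the smaller constant, 0 without a filter and 0 to 3 with a mouse left out. The causes were not tested. Some log2 differences below the threshold changed sign with a mouse left out: C4b in the SN against GqVeh ranged from -0.031 (without 804) to 1.52, C1qc in the thalamus against controls from -0.42 (without 781) to 0.66, C1qc of SN minus VTA in controls from -0.045 (without 785) to 0.47, and the C1qb response of SN minus VTA from -0.43 to 0.072 (without 785). No paired analysis was possible because mice carry no replicate number shared between groups, and the array pair, which holds mice of all 3 groups, was fitted as a block in its place. Groups of 2 or 3 mice, SN columns of 1 disc and C3 at 0 to 14 UMIs limit all values. Each limma p measures a spread between these mice that was moderated by the trend over all genes. In the SN group comparisons that spread came from the trend, so SE and p there do not measure a gene's own spread.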
